A study of Mus musculus with 2 samples.

Results

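The S100 genes described here were S100a1, S100a4, S100a6, S100a8, S100a9, S100a10, S100a11, S100a13 and S100a16, which are 9 of the 17139 genes listed in 2 scRNA-seq libraries of tumour endothelial cells (ECs). They were selected on the values of these same libraries, as the S100 rows with the most unique molecular identifiers (UMIs, which count captured RNA molecules), so that their levels and their differences between the libraries are given as a description. S100a8 was the member nearest the limit, with 454 UMIs over both libraries, and S100a3 was the nearest S100 gene left out, with 75 UMIs. The other S100 rows, S100a2, S100a7a, S100a14 and S100b, held between 3 and 62 UMIs.

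The ECs were sorted as live CD31+ CD45- cells (CD31 is an endothelial and CD45 a leucocyte surface protein) from Lewis lung carcinoma (LLC) tumours, a mouse carcinoma line implanted under the skin of adult C57BL/6 mice (male C57BL/6J per the methods). The control tumour was injected with PBS and the treated tumour with cGAMP, a cyclic dinucleotide that activates the innate immune sensor STING, and per the methods the cells were collected the day after (a figure legend of the study gives a shorter time). Each library came from 1 mouse, so the condition, the mouse and the library cannot be told apart, no test was made, and every interval below is a 95% interval for counting error only. The PBS library held 2517 cells and 92081146 UMIs, with a median of 29780 UMIs per cell, and the cGAMP library held 1340 cells and 63366746 UMIs, with a median of 41178. The libraries shared 1 cell barcode. EC identity genes (Pecam1, Cdh5, Kdr, Tie1 and Cldn5) together made up 3232 of every 1000000 UMIs (counts per 1000000, CPM) under PBS and 2808 with cGAMP, and the median share of mitochondrial UMIs was 4.49% and 2.87%.

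S100 proteins are small EF-hand proteins that mostly act as dimers. On binding calcium they expose a hydrophobic face that holds partner proteins such as annexins or myosin, and several are also released from cells, where they bind RAGE (Ager), Tlr4 and other receptors. S100a8 and S100a9 form calprotectin, the dominant cytosolic protein of neutrophils, and are known as danger signals, whereas S100a6, S100a10 and S100a11 are abundant in many adherent cells.

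All 9 genes lie on mouse chromosome 3 (GRCm38, GENCODE gene spans). A first stretch at 3:90511034-90695721 holds S100a1, S100a13, S100a16, S100a4, S100a6, S100a8 and S100a9 in that order, and a second at 3:93520488-93564643 holds S100a11 and S100a10. S100a1 (chr3:90511034-90514392, minus strand) and S100a13 (chr3:90514435-90524581, plus strand) start head to head with 42 bases between them. S100a4 spans chr3:90603771-90606045, S100a6 chr3:90612882-90624181 and S100a8 chr3:90668978-90670035, all on the plus strand, and S100a9 spans chr3:90692632-90695721 on the minus strand. The S100a4 span overlaps the annotated gene Gm42674, which was not analysed here, so reads of the overlap are uncertain.

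The 3 members with the largest differences between the libraries were S100a4, S100a8 and S100a9, and the 250 bases before the RefSeq start of each (GRCm38.p6, 5′ to 3′ on the strand of the gene) are shown here to let their upstream regions be compared. Capitals mark matches, on either strand, to an AP-1 motif (TGANTCA), an interferon-stimulated response element (GAAANNGAAA), an NF-kB motif (GGGNNNNNCC), a STAT motif (TTCNNNGAA) or a TATA box (TATAAA). The windows are chr3:90603520-90603769 on the plus strand for S100a4, chr3:90668821-90669070 on the plus strand for S100a8 and chr3:90695722-90695971 on the minus strand for S100a9. The RefSeq start of S100a8 lies inside its GENCODE span.
S100a4: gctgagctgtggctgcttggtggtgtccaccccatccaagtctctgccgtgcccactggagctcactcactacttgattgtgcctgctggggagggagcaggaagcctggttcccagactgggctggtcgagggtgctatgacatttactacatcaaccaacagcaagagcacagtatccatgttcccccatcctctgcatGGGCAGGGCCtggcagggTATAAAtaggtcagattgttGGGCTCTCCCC
S100a8: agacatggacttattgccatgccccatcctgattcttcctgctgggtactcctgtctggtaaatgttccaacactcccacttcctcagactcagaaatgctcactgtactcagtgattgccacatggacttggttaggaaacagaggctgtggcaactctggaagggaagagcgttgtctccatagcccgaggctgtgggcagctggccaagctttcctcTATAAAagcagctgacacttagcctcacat
S100a9: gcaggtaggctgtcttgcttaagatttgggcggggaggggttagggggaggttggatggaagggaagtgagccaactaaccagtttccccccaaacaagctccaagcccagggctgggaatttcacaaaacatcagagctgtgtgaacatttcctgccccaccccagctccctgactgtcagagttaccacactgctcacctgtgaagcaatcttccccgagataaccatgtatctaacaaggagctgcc

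In the S100a4 window the TATA box lay at bases -31 to -26 from the start, and in the S100a8 window at -30 to -25. Of 32851 windows of the same length, 12.4% held these letters. S100a4 also had NF-kB matches at -49 to -40 and, overlapping each other, at -11 to -2 and -10 to -1, but 45.8% of all windows held such a match. None of the 5 motifs was found in the S100a9 window, which says only that these letters are not in it. The interferon-stimulated response element (2.98% of all windows) and the STAT motif (7.02%) matched in none of the 9 windows found for 8 of the members. AP-1 letters (6.75% of windows) were found in the window of S100a11 and in 1 of the 2 windows of S100a16.

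In tumour ECs the family fell into an abundant and a scarce set. S100a6 was the most abundant member, at 2601 CPM (95% interval 2591 to 2611) under PBS and 1837 CPM (1827 to 1848) with cGAMP, ranks 66 and 94 among all genes. It was followed by S100a11 with 899 and 856 CPM, S100a10 with 634 and 612 CPM, S100a13 with 388 and 339 CPM and S100a16 with 296 and 298 CPM. These 5 genes had at least a UMI in 97.7% to 99.9% of PBS cells and 98.4% to 99.3% of cGAMP cells. S100a1 (27.4 and 19.2 CPM) and S100a4 (24.5 and 5.0 CPM) were far scarcer, and S100a8 and S100a9 were almost absent from the PBS library, with 0.337 and 0.272 CPM, against 6.68 and 9.96 CPM with cGAMP. The libraries count the 3′ end of each molecule, so levels of different genes were compared without dividing by length. All members together took 0.487% of the UMIs of the PBS library and 0.398% of those of the cGAMP library, of which S100a6 gave 53.4% and 46.1%.

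**Figure D1:**
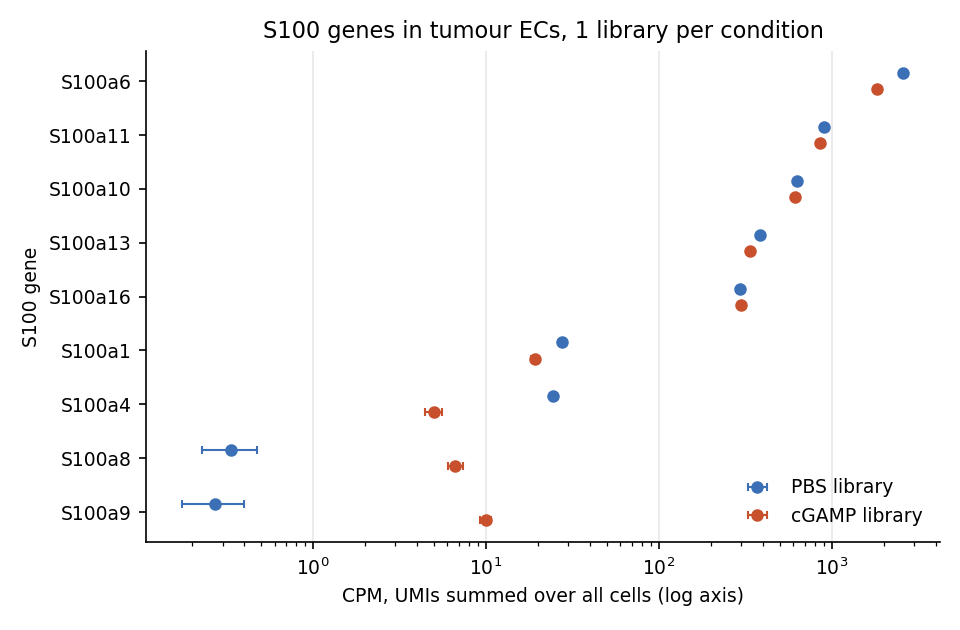
CPM of each S100 gene (log axis) in the PBS library (blue) and the cGAMP library (orange), from UMIs summed over all cells of a library, with bars for exact Poisson 95% intervals (counting error only, 1 library per condition). S100a10, S100a11, S100a13 and S100a16 nearly coincide in the libraries, S100a4 is lower with cGAMP (5.0 against 24.5 CPM), and S100a8 and S100a9 are higher (6.68 and 9.96 against 0.337 and 0.272 CPM).

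Between the libraries, 2 of the 9 members (S100a8 and S100a9) were at least 2-fold higher with cGAMP, where 1.82% of 9509 genes were (those reaching 5 CPM in a library), and 1 (S100a4) was at least 2-fold lower, where 1.70% were. Taking the log2 ratio as cGAMP over PBS, the median of the 9 members was -0.07 and that of the 9509 genes -0.075. S100a8 and S100a9 passed the 5 CPM limit only through the cGAMP library. Without the 1 cell of each library that held most UMIs of other neutrophil markers, both were under the limit and 0 members were counted as at least 2-fold higher.

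ECs were clustered without the S100 genes, which gave 8 states present in both libraries. By marker lists of each class 5 were named, and their leading genes are given in parentheses: stalk-like (Ackr1/Selp), arterial (Gja4/Nts), proliferative (Ube2c/Cenpf) and, as the sprouting class, a pair of tip-like states (Gal/Chga and Pgf/Ankrd1). The other 3 stayed unnamed and are called Ramp3/Igfbp3, Ung/Hells and Igfbp5/Ctsh after their leading genes. Igfbp5/Ctsh had all 10 stalk-like markers raised 2-fold, but none of them was among its 10 leading genes. Ung/Hells was led by DNA replication genes such as Cdc6, Mcm5 and Mcm7, with 0 of the 10 proliferative markers raised. Stalk-like cells were 13.9% of the PBS library and 24.4% of the cGAMP library, and proliferative cells 19.4% and 13.6%. Ung/Hells cells were 7.35% and 10.9%, and Igfbp5/Ctsh cells 1.83% and 3.81%. Among the members with at least 5 CPM in a library, 4 differed at least 2-fold between the highest and the lowest state in the PBS library (S100a1, S100a4, S100a6 and S100a13, with 5 CPM added to both states), where 26.8% of genes did. In the cGAMP library 6 did so, where 28.8% of genes did, and 4 without the cell with most other neutrophil UMIs. S100a13 was at the limit in the PBS library (2.02-fold) and under it at a clustering resolution of 0.3 (1.54-fold) and without integration (1.68-fold), which left 3 members there, and in the cGAMP library it was under it at resolution 0.3 (1.57-fold), which left 5. Both shares of members are from a list chosen on these cells, and nothing is read from them. Cells of a state come from 1 mouse per library, so the intervals compare these cells only.

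**Figure D2:**
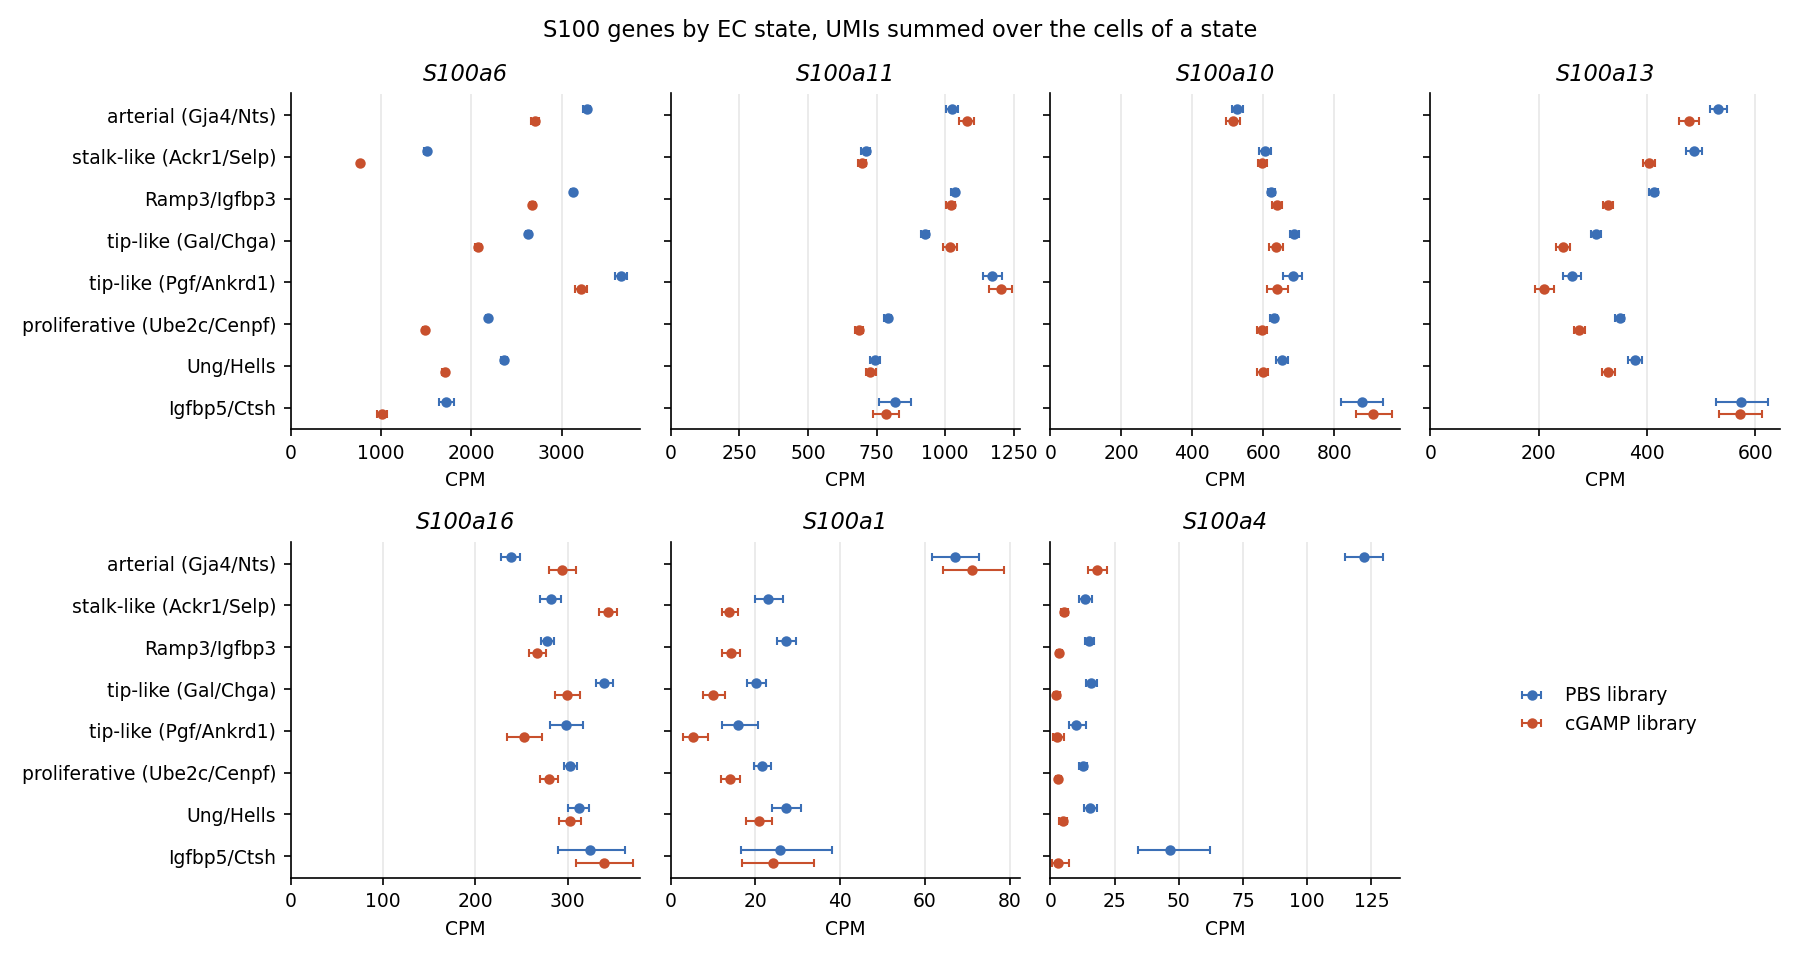
CPM of 7 S100 genes in 8 EC states, from UMIs summed over the cells of a state in the PBS library (blue) and the cGAMP library (orange), with exact Poisson 95% intervals (counting error only). S100a1 and S100a4 peak in arterial cells, S100a6 is lowest in stalk-like cells and highest in the Pgf/Ankrd1 tip-like cells, and S100a4 and S100a6 are lower with cGAMP in all 8 states.

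S100a6, or calcyclin, binds the ubiquitin-ligase adaptors Cacybp and Sugt1 and rises in cells that leave quiescence. In the PBS library it ran from 1508 CPM in stalk-like cells through 1726 in Igfbp5/Ctsh, 2187 in proliferative, 2359 in Ung/Hells, 2633 in Gal/Chga tip-like, 3124 in Ramp3/Igfbp3 and 3277 in arterial cells to 3657 in Pgf/Ankrd1 tip-like cells, and no neighbours in this order had overlapping intervals. The cGAMP library had the same order, from 772 to 3216 CPM, with arterial and Ramp3/Igfbp3 cells (2704 and 2674 CPM) the only neighbours whose intervals overlapped.

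With cGAMP, S100a6 was lower in each of the 8 states, and the size of the difference was not the same in all of them. The log2 ratio was -0.50 over all cells (-0.51 to -0.49), -0.97 in stalk-like cells (-1.002 to -0.93) and -0.19 in Pgf/Ankrd1 tip-like cells (-0.22 to -0.15). The stalk-like and the unnamed Igfbp5/Ctsh cells, which had the least S100a6 under PBS, also had the largest differences. Holding the proportions of the states equal left the log2 ratio negative, and over 10 alternative ways of processing it ran from -0.51 to -0.40.

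The low end of the S100a6 range differed more between the libraries than the high end. Cells under 500 CPM, a level set after the values were seen, were 3.06% (2.42% to 3.81%) of the PBS library and 21.0% (18.8% to 23.3%) of the cGAMP library. Among stalk-like cells they were 9.71% and 48.6%, and among Pgf/Ankrd1 tip-like cells 3.85% and 3.28%. The 10th percentile over cells was 895 CPM under PBS and 270 CPM with cGAMP, whereas the 90th was 4445 and 3963 CPM. Once each cell was thinned to 5000 UMIs, 99.3% of ECs under PBS and 93.0% with cGAMP had an S100a6 UMI, against 99.9% and 99.3% before thinning.

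**Figure D3:**
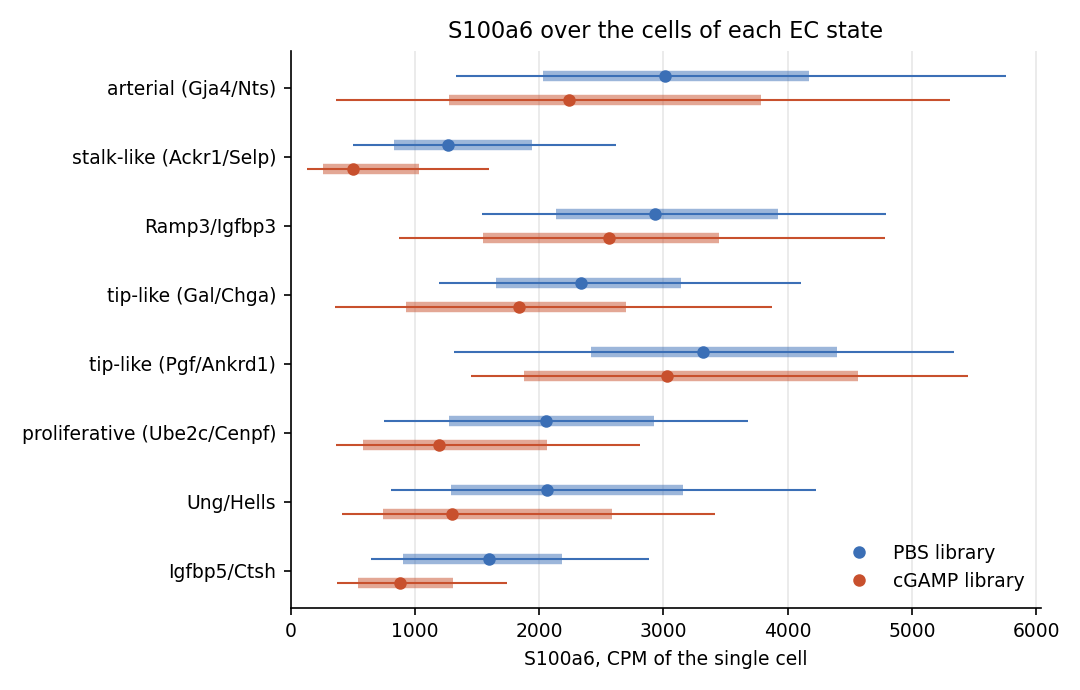
S100a6 in single cells of each EC state, in CPM of the cell, for the PBS library (blue) and the cGAMP library (orange). Points are medians, thick bars the 25th to 75th and thin lines the 10th to 90th percentile over cells of 1 mouse, and stalk-like cells have medians of 1265 CPM under PBS and 503 CPM with cGAMP, and Pgf/Ankrd1 tip-like cells 3315 and 3026 CPM.

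S100a10 (p11) and S100a11 pair with annexins. S100a10, which has lost calcium binding, holds Anxa2 at the membrane in a complex that receives plasminogen and its activators, and S100a11 binds Anxa1. Over all cells they differed little between the libraries, with log2 ratios of -0.05 (-0.07 to -0.03) and -0.07 (-0.09 to -0.05), near the median of all genes, and the sign of each turned under median-of-ratios scaling (0.025 and 0.005). Over states S100a10 varied little, from 526 CPM in arterial to 688 CPM in Gal/Chga tip-like cells under PBS, with 878 CPM in the 46 Igfbp5/Ctsh cells, and in the cGAMP library from 515 to 911 CPM in the same pair of extremes, arterial and Igfbp5/Ctsh.

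S100a11 was highest in Pgf/Ankrd1 tip-like cells in both libraries, at 1171 CPM (1136 to 1206) under PBS and 1202 CPM (1161 to 1243) with cGAMP. It was lowest in stalk-like cells under PBS (710 CPM) and in proliferative cells with cGAMP (686 CPM). Its log2 ratio was -0.20 (-0.24 to -0.17) in proliferative cells, 0.13 (0.09 to 0.18) in Gal/Chga tip-like cells and 0.07 (0.02 to 0.12) in arterial cells, and the intervals of the other 5 states held 0. Across cells S100a11 was the member that went most closely with S100a6, with Pearson's r of 0.533 over the 2517 PBS-treated and 0.575 over the 1340 cGAMP-treated ECs and medians of 0.525 and 0.551 within states. S100a10 and S100a6 gave 0.26 and 0.31. Such values share the depth of the cell, with which S100a6 itself had r of 0.09 and 0.11, and are a description.

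S100a13, which takes part in the non-classical release of Fgf1 and Il1a, was lowest in the state where S100a6 was highest, whereas arterial cells were high in both genes. In the PBS library it was lowest in Pgf/Ankrd1 (261 CPM) and Gal/Chga tip-like cells (306 CPM) and highest in stalk-like (486), arterial (531) and Igfbp5/Ctsh cells (574 CPM, the last pair overlapping in their intervals). The order with cGAMP ended in the same states, at 210 CPM in Pgf/Ankrd1 tip-like and 571 CPM in Igfbp5/Ctsh cells. Its log2 ratio was -0.19 (-0.22 to -0.17) over all cells, negative with an interval under 0 in 7 of 8 states, and stayed negative under all 10 alternatives (-0.26 to -0.12). Igfbp5/Ctsh was the exception at -0.006 (-0.16 to 0.15). Its partner Il1a had 0 UMIs under PBS, which allows up to 3, and 19 with cGAMP, and Fgf1 had 86 and 89 UMIs.

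S100a16, a broadly expressed member, was almost flat. Over all cells the log2 ratio was 0.007 (-0.02 to 0.03), of the same sign in 7 of 10 alternatives, and the states spanned 238 CPM (arterial) to 340 CPM (Gal/Chga tip-like) under PBS and 253 CPM (Pgf/Ankrd1 tip-like) to 343 CPM (stalk-like) with cGAMP. Under this small overall difference, the states differed in direction. The ratio was 0.305 (0.21 to 0.40) in arterial cells, at 238 CPM under PBS and 294 CPM with cGAMP, and 0.29 (0.22 to 0.36) in stalk-like cells, at 281 and 343 CPM, but -0.24 (-0.38 to -0.10) in Pgf/Ankrd1 and -0.18 (-0.26 to -0.11) in Gal/Chga tip-like cells.

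S100a1, best known for tuning calcium handling in heart muscle and also present in ECs, was highest in arterial cells in both libraries. It measured 67.1 CPM (61.7 to 72.9) in arterial cells under PBS and 71.1 CPM (64.2 to 78.6) with cGAMP. The other 7 states lay between 15.9 and 27.3 CPM under PBS and between 5.33 and 24.3 CPM with cGAMP, and most of them had overlapping intervals with their neighbours in order. In arterial cells the interval of the log2 ratio held 0 (0.08, -0.11 to 0.27), while 6 of the other states had intervals under 0, down to -1.58 (-2.50 to -0.74) in Pgf/Ankrd1 tip-like cells. Over all cells the ratio was -0.51 (-0.61 to -0.41). After thinning to 5000 UMIs, S100a1 was found in 29.5% of arterial cells under PBS and 30.99% with cGAMP, while the intervals over all cells were 11.7% to 14.4% and 8.04% to 11.3% (51.5% and 47.2% of cells unthinned).

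S100a4, known as metastasin or fibroblast-specific protein, binds non-muscle myosin (Myh9) and is also made by leucocytes. It had 2254 UMIs under PBS and 317 with cGAMP, 24.5 CPM (23.5 to 25.5) and 5.0 CPM (4.47 to 5.59). The log2 ratio was -2.29 (-2.46 to -2.12), a level 4.89-fold higher under PBS, and 0.0526% of genes with at least 5 CPM had a lower ratio. It was negative in each of the 8 states with intervals under 0, from -1.35 in stalk-like to -4.03 in Igfbp5/Ctsh cells, where 4 UMIs remained with cGAMP. Over the 10 alternatives it ran from -2.51 to -2.19.

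Like S100a1, S100a4 was highest in arterial cells, at 122 CPM (115 to 130) under PBS and 18.0 CPM (14.6 to 22.0) with cGAMP, and these cells held 1036 of its 2254 UMIs and 97 of its 317. Under PBS the Igfbp5/Ctsh cells followed with 46.5 CPM, and the remaining 6 states lay between 9.99 and 15.9 CPM with overlapping neighbours. The 15.9 CPM was that of Gal/Chga tip-like cells, where 1 cell held 108 of the 257 UMIs. The gene was very unevenly spread over cells. In the PBS library 30.5% of cells had a UMI, the 1% of cells with most S100a4 held 39.1% of its UMIs, and the highest cell had 108. In the cGAMP library 14.4% of cells had a UMI and the highest cell had 13. After thinning to 5000 UMIs the shares were 8.05% and 2.71%. Genes of fibroblasts and pericytes, cells that also express S100a4, summed to 14.2 CPM under PBS (8.64 to 28.5 over states) and 5.40 CPM with cGAMP (2.84 to 37.8). All 8 were listed and 1 of them, Rgs5, passed 5 CPM, through the PBS library only (5.46 and 1.75 CPM). It was at least 2-fold lower, where 1.70% of 9509 genes were. Pdgfra was at 0 with cGAMP, and Dcn was higher (0.782 and 1.215 CPM). Pan-leucocyte genes, 5 of 5 listed and none at 0, summed to 18.7 CPM (5.17 to 38.1 over states) and 23.4 CPM (14.7 to 39.1).

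Cells with at least 10 S100a4 UMIs, a mark set after the values were seen, numbered 39 in the PBS library (1.55% of cells, 1045 UMIs) and 3 in the cGAMP library (34 UMIs). Of the 39, 31 were arterial and none had a Ptprc UMI. Their pan-leucocyte markers summed to 9.42 CPM, against 18.8 CPM in the other cells, and their fibroblast or pericyte markers to 12.8 CPM, against 14.2 CPM, and Pecam1 had a median of 20 UMIs and Cdh5 of 27. Keratin genes (29.96 against 1.79 CPM, 22 UMIs in 1 cell) and lymphatic genes (46.2 against 17.4 CPM, 51 UMIs in 1 cell) were higher in them. The part of these genes in the result was not tested. The 3 cGAMP cells had 151.9 CPM of pan-leucocyte markers, against 23.0 CPM in the other cells, and 1 of them held all 30 of those UMIs, 5 of them Ptprc. In the cells with fewer than 10 S100a4 UMIs the level was 13.3 CPM under PBS and 4.48 CPM with cGAMP, a log2 ratio of -1.57 (-1.76 to -1.38). The mark was set on S100a4 itself and took 1045 UMIs from the PBS library and 34 from the cGAMP library, so that it lowered the difference by its construction.

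S100a8 and S100a9 were higher with cGAMP in absolute numbers that remained small. S100a8 had 31 UMIs in 28 PBS cells and 423 UMIs in 114 cGAMP cells, with a log2 ratio of 4.31 (3.78 to 4.89). S100a9 had 25 UMIs in 19 cells and 631 UMIs in 124 cells, with a log2 ratio of 5.20 (4.62 to 5.84). Together they measured 0.608 CPM (0.459 to 0.790) and 16.6 CPM (15.6 to 17.7). With cGAMP 37 cells had UMIs of both genes, 77 of S100a8 alone and 87 of S100a9 alone, and 145 of these 201 cells had just 1 UMI in all.

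A large part of this came from 1 cell. The cell, grouped with the Pgf/Ankrd1 tip-like cells, held 245 S100a8 and 431 S100a9 UMIs of its 45065, which is 64.1% of all UMIs of the pair with cGAMP. It also held 166 Il1b, 18 Stfa2l1, 11 Clec4d, 6 Il1r2 and 3 Csf3r UMIs, 20 of Tyrobp and 1 of Ptprc, and 11 of the 15 other neutrophil markers in all. Its EC genes were low but present, with 8 Pecam1, 18 Cdh5 and 2 Kdr UMIs. Without it the cGAMP library had 378 UMIs of the pair and 5.97 CPM (5.38 to 6.60), and the log2 ratio of both together was 3.30 in place of 4.77. In the Pgf/Ankrd1 cells they went from 246 to 5.78 CPM (3.30 to 9.38) without it. The PBS cell left out by the same rule held 0 UMIs of the pair, so only the cGAMP library lost such UMIs. The PBS cell with most of the pair, a Gal/Chga tip-like cell with 4 S100a8 and 7 S100a9 UMIs (19.6% of that library), stayed in. Without the cell with most of the pair in each library, the levels were 0.489 CPM (0.357 to 0.654) under PBS and 5.97 CPM with cGAMP.

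**Figure D4:**
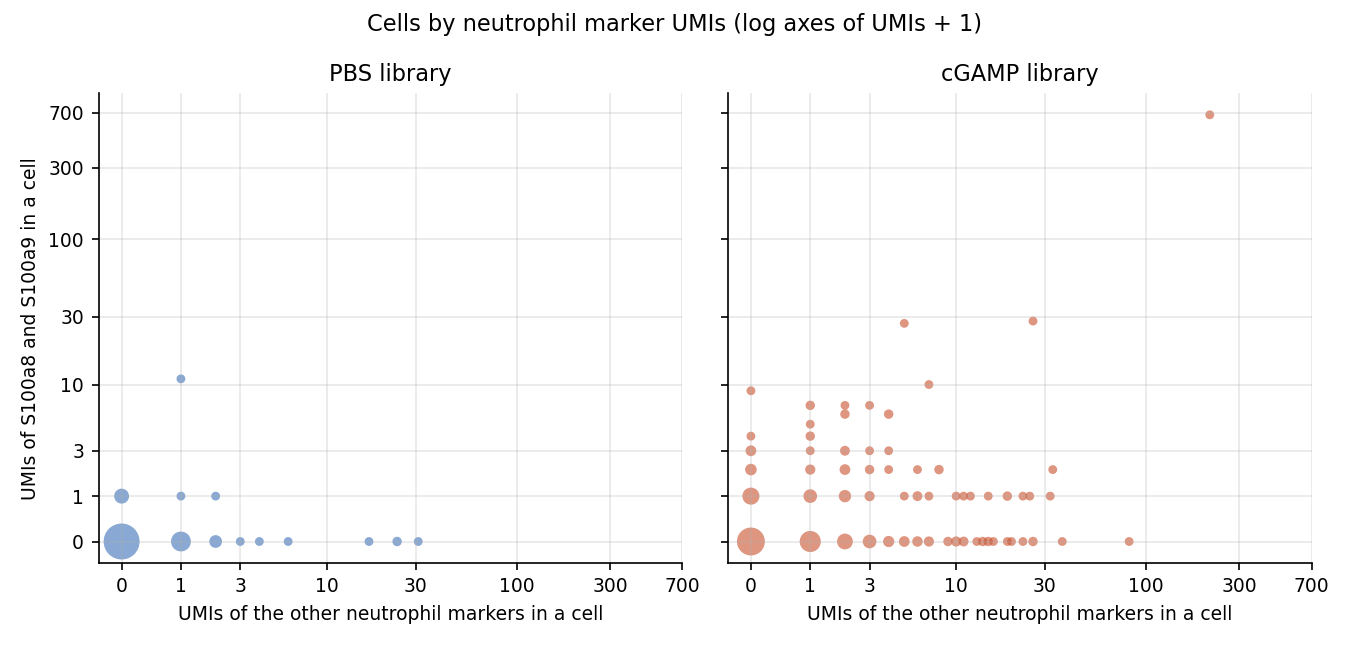
UMIs of S100a8 and S100a9 in a cell against UMIs of 15 other neutrophil markers in the same cell (log axes of UMIs plus 1), for the PBS library (left) and the cGAMP library (right), with larger points for more cells. A cGAMP cell with 676 and 212 UMIs stands apart at the upper right, and most other cells have 0 or 1 UMI on either axis.

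The 15 other neutrophil markers with a row, of 22 chosen, summed to 3.49 CPM in the PBS library (1.03 to 14.6 CPM over states) and 25.1 CPM in the cGAMP library (8.17 to 121 CPM over states). Retnlg, Trem1 and Wfdc21 were at 0 under PBS, and none of the 15 was at 0 with cGAMP. The cells were sorted as CD45-, and the authors also removed clusters without Pecam1. A UMI of Ptprc, the CD45 gene, was found in 20 PBS cells and 29 cGAMP cells. With cGAMP 456 cells held at least a UMI of the 15 markers and 87.1% of the S100a8 and S100a9 UMIs. The remaining 884 cells held none and the other 136 UMIs, 3.53 CPM (2.96 to 4.18). Without the highest cell, the share in cells with these markers was 64.0% (242 of 378 UMIs). In PBS-treated ECs the 2317 cells without such markers had 43 UMIs, 0.519 CPM (0.375 to 0.698). The log2 ratio between the cells without other neutrophil markers was 2.77. Free neutrophil RNA in the droplets and transcription in the ECs cannot be told apart in these cells.

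Most of the other neutrophil UMIs with cGAMP were Lcn2, an acute-phase gene that ECs and epithelia also make, with 52 UMIs under PBS and 950 with cGAMP. Leaving Lcn2 out of the markers, 284 cGAMP cells held 78.0% of the S100a8 and S100a9 UMIs, and 1056 cells without the other 14 markers had 232 UMIs, 4.96 CPM (4.34 to 5.64). Without the highest cell the marked cells were 283 of 1339 and held 38.6% of the pair, 146 of 378 UMIs. The other 232 UMIs lay in the 1056 cells with none of the 14 markers. Lcn2 and S100a8 met in a stalk-like cell with 28 S100a8 and 26 Lcn2 UMIs, 43 Pecam1 and 60 Cdh5 UMIs, no S100a9 and none of the other 14 markers. Of the 227 cells with Lcn2, 24.7% (19.2% to 30.8%) had a UMI of S100a8 or S100a9, against 13.03% (11.1% to 15.2%) of the 1113 cells without, at median depths of 43851 and 40076 UMIs. With cGAMP, S100a8 was found in 7 of 12 Retnlg and 6 of 10 Wfdc21 cells, against 8.06% and 8.12% of other cells. S100a9 was found in 6 and 7 of them, against 8.89% and 8.8%. These markers were in few cells, and some markers went the other way. Neither gene was found in 9 Asprv1 and 8 Elane cells, and S100a9 in none of 7 Ltf cells. S100a8 was in 8.24% of 85 Clec4d cells, against 8.53% of the others.

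S100a8 and S100a9 were unevenly spread over the states of the cGAMP library even without the highest cell. Stalk-like cells had 12.5 CPM of both genes together (10.7 to 14.5), above the 2.93 to 5.78 CPM of the other 7 states. The share of cells with a UMI of either gene was 23.2% (18.8% to 28.2%) in stalk-like, 21.7% (12.1% to 34.2%) in the remaining Pgf/Ankrd1 and 18.5% in Ung/Hells cells, and 7.09% (3.29% to 13.03%) in Gal/Chga tip-like cells. Under PBS the 350 stalk-like cells had 3 S100a9 UMIs and 0 of S100a8 (upper limit 0.432 CPM), and the states spanned 0.857% to 2.89% of cells. Lcn2 was also highest in stalk-like cells, with 35.3 CPM, and the other markers without Lcn2 had 6.63 CPM there, within the 4.27 to 7.85 CPM of the states other than Pgf/Ankrd1. The myeloid gene Lyz2 was also highest in stalk-like cells, at 16.8 CPM against 10.7 to 14.3 CPM in the other states, and the part of these genes in the result was not tested.

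**Figure D5:**
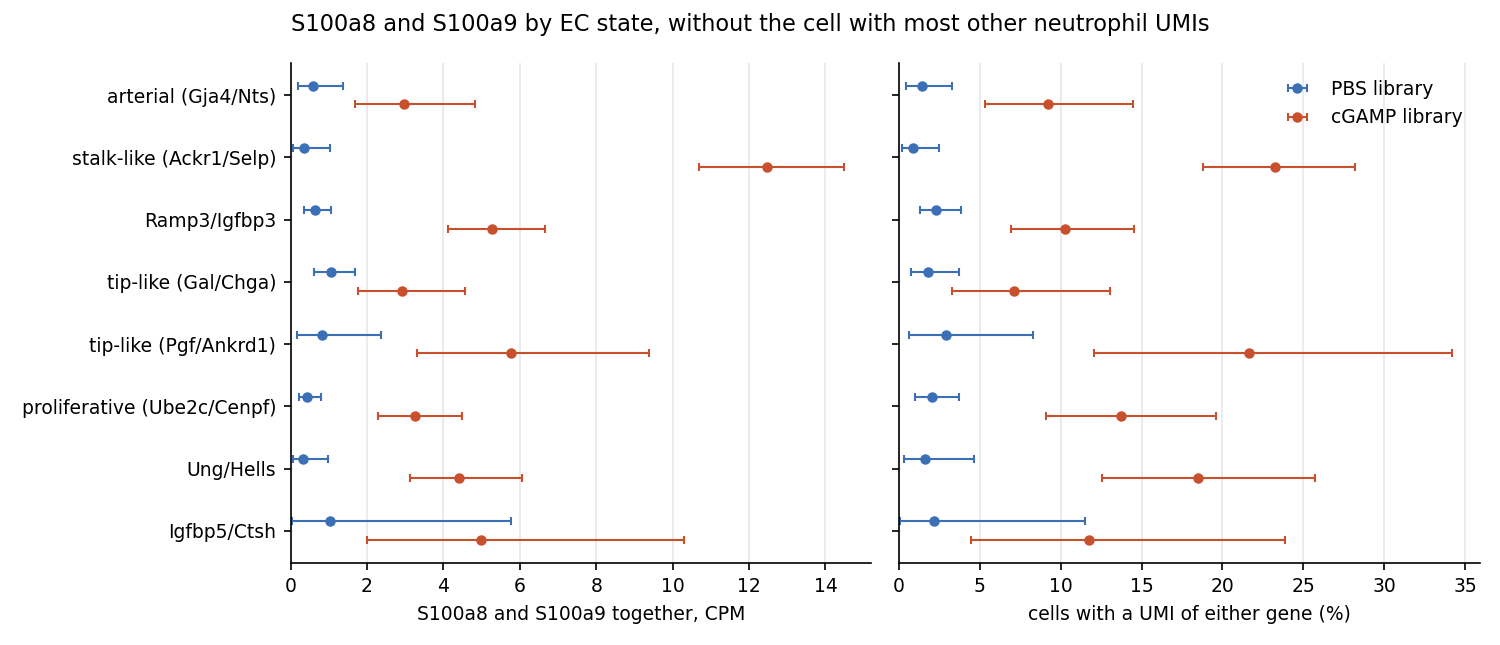
S100a8 and S100a9 together by EC state, as CPM with exact Poisson 95% intervals (left) and as the percentage of cells with a UMI of either gene with Clopper-Pearson 95% intervals (right), in the PBS library (blue) and the cGAMP library (orange), each without the cell with most other neutrophil UMIs. Stalk-like cells of the cGAMP library stand above the others at 12.5 CPM, and PBS values lie at or under 1.05 CPM in every state.

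The ratio of the pair was read in groups of cells. S100a9 gave 63.8% (60.0% to 67.4%) of their UMIs in the highest cell, 52.9% (47.7% to 58.0%) in all other cells, 43.4% (36.0% to 51.1%) in stalk-like cells and 74.3% (62.4% to 84.0%) in Ramp3/Igfbp3 cells. Single cells weighed heavily in those last 2 values. The cell with 28 S100a8 UMIs gave that many of the 99 in stalk-like cells. A Ramp3/Igfbp3 cell gave 5 of 18 S100a8 and 22 of 52 S100a9 UMIs, and also held 3 Retnlg UMIs. The intervals count the UMIs of a cell as independent, and whether the ratio differs between states was not tested. For comparison with RNA of other cells, cells were thinned to 5000 UMIs. The share of cells with S100a8 was then 0.164% under PBS and 1.51% with cGAMP, and that with S100a9 0.0817% and 1.81%. Ptprc, the pan-leucocyte CD45 gene, gave 0.0817% and 0.377%, the myeloid gene Tyrobp 0.409% and 1.51%, and the macrophage gene Lyz2 1.64% and 5.73%. With cGAMP both members lay near Tyrobp and under Lyz2, and unthinned they were found in 8.51% and 9.25% of cells, against 10.97% for Tyrobp and 38.4% for Lyz2. All these genes were higher with cGAMP, but other genes of their lists were not. Of the pan-leucocyte genes that passed 5 CPM, 1 was higher (Fcer1g, log2 ratio 1.06) and 1 was lower (Coro1a, -0.52). Of the macrophage or monocyte genes that passed, 2 were higher (Lyz2 and Cd68) and 1 was lower (Apoe, -0.75). The platelet gene Pf4 was higher, at 2.74 and 6.83 CPM (thinned shares of 1.10% and 3.92%). The rest of the platelet list was lower, Ppbp with 33 and 16 UMIs and Gp9 with 20 and 5 UMIs. In CPM the red cell gene Hbb-bs was lower (64.5 and 39.1 CPM), as was the fibroblast gene Col1a1 (1.16 and 0.473 CPM). Their thinned shares were 0.654% and 0.829% for Hbb-bs and 0.450% and 0.452% for Col1a1. What part free RNA has in any of these shares was not tested.

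The partners of the S100 proteins were read from lists chosen with earlier results of these data known. All 8 annexins passed 5 CPM, 1 was at least 2-fold lower with cGAMP and none higher (1.70% and 1.82% of all 9509 genes were), and their median log2 ratio was -0.145, against -0.075 over all genes. Anxa2, the S100a10 partner, measured 961 and 889 CPM (log2 ratio -0.11), and Anxa1, the S100a11 partner, 235 and 310 CPM (0.40), so that Anxa1 was higher with cGAMP where S100a11 was not. The lower gene was Anxa6, at 103 and 38.4 CPM (-1.43, -1.49 to -1.36).

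Of 8 surface receptors 5 passed, none was 2-fold higher or lower, beside 1.82% and 1.70% of all genes, and their median log2 ratio was 0.147. Ager, the RAGE receptor, was near absent at 1.78 and 1.59 CPM, whereas Tlr4 had 15.6 and 16.8 CPM, Mcam 371 and 482 CPM and basigin (Bsg) 426 and 477 CPM. Among 11 other partners 8 passed, with 1 at least 2-fold higher and 1 lower, beside the same 1.82% and 1.70% of all genes. The higher was the urokinase receptor gene Plaur, with 98.0 CPM under PBS and 230 CPM with cGAMP (log2 ratio 1.23), and the lower was Ahnak, a large scaffold held by S100a10 and Anxa2, with 435 and 207 CPM (-1.07). Myh9, the myosin bound by S100a4, measured 460 and 290 CPM (-0.67), and the S100a6 partners Cacybp and Sugt1 had ratios of 0.36 and -0.06.

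The genes most like each member were taken as those with the highest Pearson's r of log2 CPM (5 added) over 14 points, the 7 states with at least 50 cells in both libraries, after the mean of each library was subtracted, among 6045 genes. The points of a library share a mouse and the values are a description. S100a4 went with Stmn2 (0.95), the arterial connexin gene Gja4 (0.935) and Ly6c1 (0.92), and S100a1 with Itga1 (0.96), Ptpra (0.95) and Abhd16a (0.94). S100a6 went with Rgcc (0.96), Gpx8 (0.93) and Ilk (0.92), S100a11 with Plin2 (0.96), Creb3 (0.95) and Arhgef28 (0.95), and S100a10 with Bin1 (0.96), Sh2d5 (0.94) and Slc4a7 (0.94). S100a13 went with Nr4a1 (0.98), Bvht (0.98) and Palmd (0.97). S100a16, which hardly varied, reached 0.83 at most, with Slc38a10. Leaving out S100a8 and S100a9, the closest members over these points were S100a6 and S100a11 (0.88), S100a1 and S100a4 (0.83) and the head-to-head neighbours S100a1 and S100a13 (0.81), and S100a10 ran opposite to S100a1 (-0.88). Across cells S100a1 and S100a4 had r of 0.221 (PBS) and 0.218 (cGAMP), with medians of 0.059 and 0.048 within states. For S100a1 and S100a13 these were 0.232 and 0.282, and 0.178 and 0.202. S100a1 and S100a10 gave -0.039 and -0.085 across cells and 0.059 and 0.021 within states.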

How the data were processed

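Droplet scRNA-seq libraries of sorted ECs, 1 per condition, were analysed from the deposited matrices. Per the labels and methods, the authors aligned reads to mm10 with Cell Ranger 3.0.0, used Seurat 3.1.1, removed cells with fewer than 500 genes or over 10% mitochondrial UMIs, genes in fewer than 3 cells and clusters without Pecam1, and deposited natural log values, ln(1 + UMIs of the gene scaled to 10000 in its cell). Labels and methods differ in the kit version. The annotation used for counting is not given in the sources used here. UMI counts were recovered by undoing the log and dividing by the smallest step of a cell, and 100% of values came within 0.01 of a whole number.

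The members and the gene lists were chosen with earlier results of these data known. UMIs were summed per library or state and given in CPM with exact Poisson intervals, log2 ratios with exact conditional binomial intervals, and shares with Clopper-Pearson intervals, all at 95%. Molecules of 1 mouse are not replicates, so intervals cover counting error only. Where stated, cells were thinned to 5000 UMIs before shares were taken, which left out 70 PBS-treated and 13 cGAMP-treated cells. Genes needed 5 CPM in either library to be counted, and a fold of 2 to be called. Ratios were tested on simulated counts of 9309 genes, where 100% of 200 changed genes had the right sign and 89.5% came within 0.1. The simulated counts were Poisson sums per library with no spread between cells or mice, so they check the calculation only. Genes under 5 CPM in the pooled libraries were left out, S100a8 and S100a9 among them.

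Clustering used Seurat 5.3.0 and R 4.3.3 (2500 variable genes, integration anchors, 30 principal components, Louvain resolution 0.5, with 0.3, 1.2 and no integration as alternatives). Variable genes that differed at least 2-fold between libraries, and the 5 members among the variable genes, were left out, which left 1792. A cluster was named only where at least 3 markers of a class were raised 2-fold (5 CPM added) and its 10 leading genes held a marker of that class. Doublets were not removed. Named genes were the members, the genes of the lists and the 3 genes most like each member with at least 20 CPM. Leading genes of clusters were chosen after their values were seen. Gene spans are from GENCODE vM21 on GRCm38, which is the assembly of mm10, and promoter windows from RefSeq on GRCm38.p6, where 8 members had an entry and S100a10 had none. Figures were drawn with matplotlib 3.10.9.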

Additional observations from a re-analysis of the deposited data

Results flagged for a closer look

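S100a11 and S100a16 were higher with cGAMP in some EC states and lower in others, with counting intervals clear of 0 on both sides. For S100a11 the log2 ratio was 0.13 in Gal/Chga tip-like and -0.20 in proliferative cells, a gap of 0.337. For S100a16 it was 0.305 in arterial and -0.24 in Pgf/Ankrd1 tip-like cells, a gap of 0.544. With 1 mouse per condition the differences between states were not tested.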

How the results depend on the processing

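The count of members at least 2-fold higher with cGAMP was 2 in the main analysis and 0 without cells with another neutrophil marker UMI, without cells with a Ptprc UMI, with at least 20 CPM in either library, and without the cell with most other neutrophil marker UMIs in each library, an alternative added after the data were seen. In these settings S100a8 and S100a9 were under the CPM minimum. The log2 ratio of both genes together was then 2.77, 3.29 and 3.30 for the 3 settings that removed cells and 5.43 with cells thinned to 5000 UMIs, against 4.77. The median over the members moved from -0.07 to -0.092 with the mean of per-cell CPM, 0.005 with median-of-ratios scaling, -0.051 with state proportions held equal, -0.187 without cells with other neutrophil markers, -0.198 without Ptprc cells, and -0.192 at 20 CPM and without the cell. The values of -0.187, -0.198 and -0.192 are medians over 7 members in place of 9, since S100a8 and S100a9 were not counted. The share of S100a8 and S100a9 UMIs in cells with other neutrophil markers went from 23.2% to 0% (PBS) and from 87.1% to 75.7% (cGAMP) with at least 3 such UMIs, and to 78.0% (cGAMP) with Lcn2 left out, also added later. Without the cell with most other neutrophil marker UMIs these cGAMP shares were 64.0%, 32.3% with at least 3 such UMIs and 38.6% with Lcn2 left out, and the PBS shares 23.2%, 0% and 23.2%. Members with a 2-fold range over states numbered 3 in place of 4 (PBS) and 5 in place of 6 (cGAMP) at resolution 0.3, 3 (PBS) without integration, and 4 in place of 6 (cGAMP) without that cell. The count of members at least 2-fold lower stayed at 1 in all alternatives. Unthinned shares of cells moved outside the intervals of the thinned ones for 18 of 18 member and library pairs. No paired analysis was possible because each condition has 1 library. Depth limits S100a8 and S100a9 most, with 56 UMIs of both under PBS.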
